A study of Xenopus laevis with 6 samples.

Results

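The genes described here code for digestive enzymes that are not proteases: bile-salt-stimulated lipase (cel.2.S and cel.2.L), pancreatic lipase (pnlip.L), a pancreatic lipase-related protein (pnliprp2.L), amylase (amy2b.S), a chitinase (chit1.S) and deoxyribonuclease I (dnase1). They were taken by gene symbol from the platform annotation, and each of the 7 genes had 1 probe set with that symbol alone, so the group holds 7 of the 7531 genes that the annotation names singly and 7 of the 15491 probe sets analysed. RNA came from pancreas buds, stomach and liver of Xenopus laevis embryos at stage 42, swimming tadpoles of mixed sex, and was hybridised to 6 Affymetrix genome arrays. Each organ had 2 arrays from separate isolations of tissue, called replicates 1 and 2 below, and the study asked which genes the early pancreas expresses above its neighbours. By the series' description the buds held mesoderm as well as endoderm, and no genetic change or treatment is given for any group. A letter L or S at the end of a symbol marks the copy of the gene on the long or short chromosome of this frog, whose genome is duplicated.

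In vertebrates the acinar cells of the exocrine pancreas make pancreatic lipase, bile-salt-stimulated lipase and pancreatic amylase. They store these enzymes in granules and release them into the gut lumen. Pancreatic lipase splits dietary triglycerides and works with the cofactor colipase, while bile-salt-stimulated lipase also splits cholesterol esters and vitamin esters and needs bile salts. Amylase cleaves starch, deoxyribonuclease I cleaves DNA, and chitinases cleave chitin of arthropod and fungal food; in mammals the chitinase gene CHIT1 is best known from macrophages. The embryos were of a stage before tadpoles begin to feed.

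By their sums, the exocrine pancreas, hepatocyte and gastric epithelium lists followed the organ labels, while the endocrine list was mixed. The deposited intensity of a probe set is a linear scale with a median of 100 on each array, and it gives no detection call, so a low value cannot be placed above or below background. The summed intensity of 11 pancreatic protease genes was 83952 and 59676 on pancreas arrays 1 and 2, 3999 and 4840 on the stomach arrays and 427 and 682 on the liver arrays. The sum over 12 hepatocyte genes was 1865 and 320 in pancreas, 1677 and 1198 in stomach, and 65418 and 48969 in liver. The sum over 4 gastric epithelium genes was 48.0 and 490 in pancreas, 12584 and 7181 in stomach, and 63.7 and 50.1 in liver. No gene of these lists was listed at 0 on any array. Of 6 endocrine genes, 3 were higher in pancreas than in stomach in limma (3.59% of all probe sets were). The genes sst.1.L, gcg.L and scg3.L did not pass (limma adjusted p = 0.0725, 0.272 and 0.944). In pancreas sst.1.L had 102 and 47.7, and in stomach 819 and 268. For gcg.L the values were 17.1 and 11.6 in pancreas and 82.4 and 23.1 in stomach. Smooth muscle genes were lower in pancreas than in stomach for 7 of 7 genes (4.39% of all probe sets were lower; 0 to 6 genes with single arrays left out), and 0 of the 7 passed between pancreas and liver in limma (1 at an unadjusted p under 0.05). Of 5 red blood cell genes, 2 were lower in pancreas than in liver (3.55% of all probe sets were lower; 0 or 1 with single arrays left out), and 0 were called between pancreas and stomach in limma (2 at an unadjusted p under 0.05). In tissue pieces of this kind, fewer cells of a type and less RNA per cell cannot be told apart.

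The pancreas held higher levels of 5 of the 7 enzyme genes than both other organs, by 73.3-fold to 190-fold over stomach and by 117-fold to 395-fold over liver. The 2 genes of the pancreatic lipase family, pnlip.L and pnliprp2.L, did not pass in any comparison and stayed within 1.32-fold and 1.41-fold between their lowest and highest arrays. A gene was called when its Benjamini-Hochberg adjusted p over all 15491 probe sets was under 0.05 in limma's moderated test, with 2 arrays per organ and 1 estimate of the spread for all 6 arrays. Over all probe sets 3.59% were called higher in pancreas than in stomach and 2.7% higher than in liver. For these 5 genes both pancreas arrays exceeded both arrays of either other organ, which held for 33.8% of all probe sets against stomach and 30.3% against liver. A pancreas level more than 3-fold above both organs, and called against both, was found for 0.742% of the probe sets. The test in the series' description, a plain ANOVA p under 0.05 with a ratio above 3, took the same 5 genes as higher in pancreas than in stomach (2.17% of all probe sets) and than in liver (2.03%). That ANOVA gives 1 unadjusted p over all organs together, and only the ratio is taken by pair. With Benjamini-Hochberg adjustment the ANOVA p of the 5 genes lay between 0.0590 and 0.0883, so none passed 0.05. The genes were chosen with earlier results of these data known, so their number is a description. The p-values rest on the spread between isolations, and 2 arrays against 2 cannot go below p = 0.333 in an exact permutation test.

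**Figure D1:**
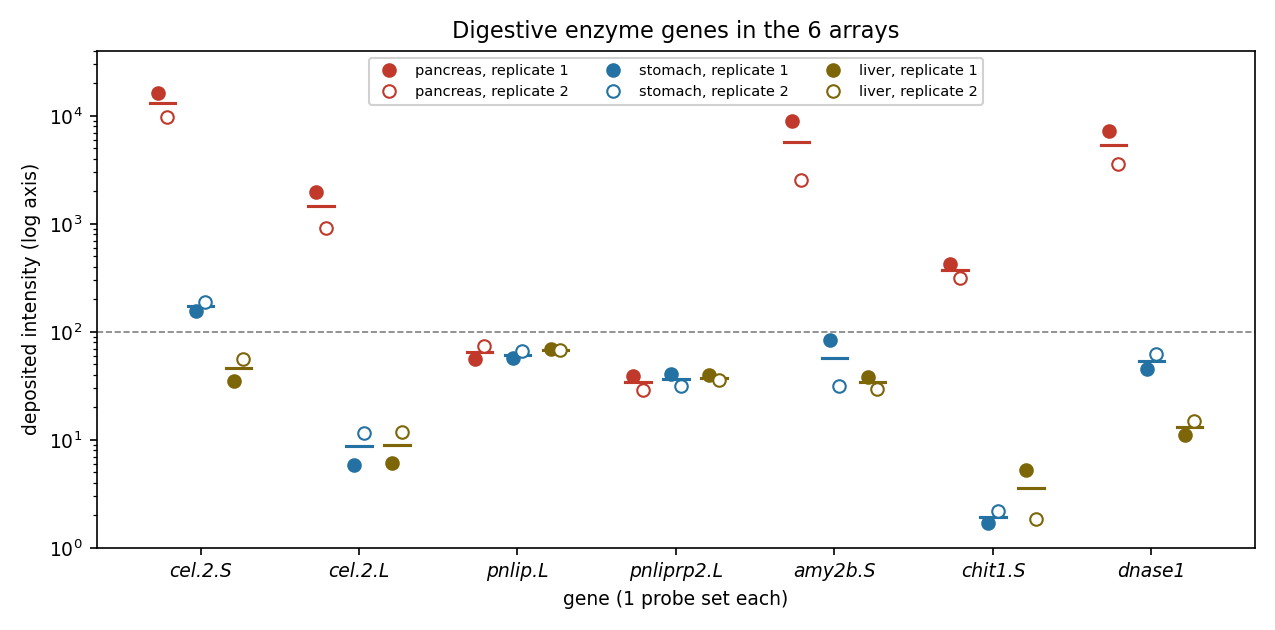
Deposited intensity (log axis) of each of the 7 genes on the pancreas, stomach and liver arrays; filled points are replicate 1, open points replicate 2, short bars the mean of the 2 arrays, and the dashed line the array median of 100. The pancreas points of cel.2.S, cel.2.L, amy2b.S, chit1.S and dnase1 lie far above the other organs, whereas pnlip.L and pnliprp2.L lie under 100 on all 6 arrays.

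Among the lipase genes of the group, those of bile-salt-stimulated lipase had the pancreas excess, in both gene copies. The copy cel.2.S had intensities of 16205 and 9785 in pancreas, 156 and 189 in stomach, and 35.2 and 56.3 in liver, for replicates 1 and 2 in this order. The 3 organs did not overlap for this gene, with stomach between the others. The gene was 73.3-fold higher in pancreas than in stomach (log2 difference 6.20, SE 0.367; limma adjusted p = 0.00660) and 283-fold higher than in liver (log2 difference 8.14, SE 0.367; limma adjusted p = 0.00351).

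The other copy, cel.2.L, had 1987 and 920 in pancreas, 5.81 and 11.65 in stomach, and 6.11 and 11.81 in liver. Both pancreas arrays were high, and the stomach and liver arrays covered nearly the same range. It was 164-fold higher in pancreas than in stomach (log2 difference 7.36, SE 0.580; limma adjusted p = 0.0100) and 159-fold higher than in liver (log2 difference 7.31, SE 0.580; limma adjusted p = 0.00780). Its values outside pancreas were near the low end of the scale, where 11.9% to 13.7% of all probe sets, depending on the array, lie under 16. With 16 added to each intensity before taking log2 the folds were 55.8 and 55.2.

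The copies can be set against each other only through their change between organs, since intensities of different probe sets do not share a scale. The ratio of the cel.2.S to the cel.2.L intensity was 8.16 and 10.6 on the pancreas arrays, 26.9 and 16.2 on the stomach arrays and 5.76 and 4.77 on the liver arrays. The exact permutation test gave p = 0.333 for each pair of organs, two-sided, the smallest that 2 arrays against 2 allow. Outside pancreas the cel.2.L values are low, and the order of the organs depended on them: with 16 added to each intensity, an alternative chosen after seeing the data, the ratios were 8.10 and 10.5 in pancreas, 7.89 and 7.41 in stomach, and 2.32 and 2.60 in liver. Stomach was thus above pancreas on the deposited scale and below it with 16 added, while liver was lowest on both. Whether each probe set hybridises to its own copy alone was not tested. In the RefSeq gene table of the v10.1 assembly, cel.2.L is followed directly by cel.1.L and cel.2.S by cel.1.S. The neighbour cel.1.L is of the same lipase family and had intensities of 58.8 and 108 in pancreas, 35.1 and 40.1 in stomach, and 21.3 and 19.9 in liver. Its pancreas level exceeded liver by 3.87-fold (limma adjusted p = 0.0384), a call that ended when any 1 of the 6 arrays was left out, while its 2.12-fold difference from stomach did not pass (limma adjusted p = 0.120).

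The pancreatic lipase probe sets did not separate the organs. The gene pnlip.L had 56.0 and 73.9 in pancreas, 57.1 and 66.1 in stomach, and 68.8 and 67.3 in liver. The pancreas arrays held both the lowest and the highest of the 6 values. The ratio of pancreas to stomach was 1.05, with a 95% interval of 0.702 to 1.56 from limma (adjusted p = 0.881). The ratio of pancreas to liver was 0.946, with an interval of 0.634 to 1.41 (limma adjusted p = 0.870).

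The lipase-related gene pnliprp2.L had 39.2 and 28.9 in pancreas, 40.9 and 31.7 in stomach, and 39.5 and 35.4 in liver. Replicate 1 was above replicate 2 in each organ, and the organs overlapped. The ratio of pancreas to stomach was 0.936 with an interval of 0.595 to 1.47 (limma adjusted p = 0.846), and that of pancreas to liver was 0.901 with an interval of 0.573 to 1.42 (limma adjusted p = 0.772). All of these intervals lie far below the smallest fold of the 5 called genes, 73.3. Both probe sets stayed under the array median of 100, and whether they measured their transcripts at all was not tested. No probe set had pnlip.S, pnliprp2.S, pnliprp1.S or a colipase symbol (clps.L or clps.S) as its single symbol. The pancreatic lipase family was thus read through the 2 L copies alone, and the other copies were not tested. In the RefSeq table pnlip.L and pnliprp2.L lie on 1 chromosome with 7 genes between them.

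**Figure D2:**
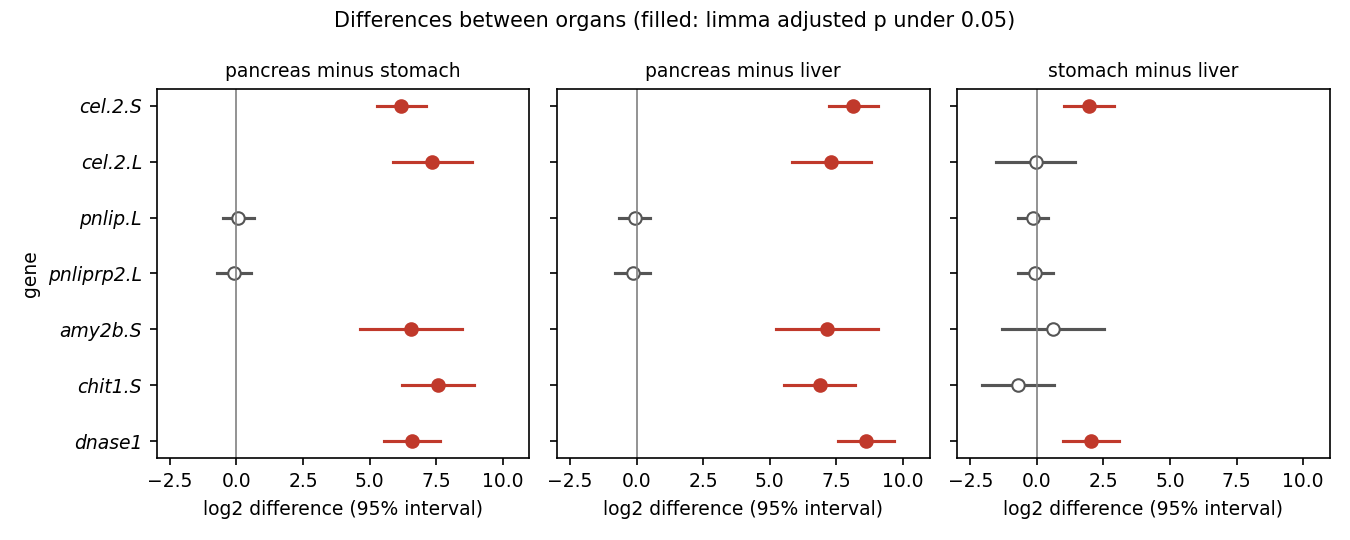
Log2 difference between organs for each gene, in pancreas minus stomach, pancreas minus liver and stomach minus liver, with 95% intervals from limma on 6 arrays; filled red points have an adjusted p under 0.05. The 5 called genes lie above 6 in both pancreas comparisons, the intervals of pnlip.L and pnliprp2.L include 0, and in stomach minus liver only cel.2.S and dnase1 are filled, near 2.

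Amylase had the widest spread between the pancreas arrays. The gene amy2b.S had 8963 and 2559 in pancreas, 83.5 and 31.2 in stomach, and 38.2 and 29.7 in liver. Both pancreas arrays were high, and stomach and liver overlapped. It was 93.8-fold higher in pancreas than in stomach (log2 difference 6.55, SE 0.747; limma adjusted p = 0.0166) and 142-fold higher than in liver (log2 difference 7.15, SE 0.747; limma adjusted p = 0.0126). The fold over stomach was 50.1 without pancreas replicate 1 and 176 without pancreas replicate 2, and 153 and 57.4 without stomach replicate 1 or 2. The fold over liver was 76.0 and 266 without pancreas replicate 1 or 2.

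The chitinase gene chit1.S had 423 and 317 in pancreas, 1.71 and 2.17 in stomach, and 5.29 and 1.86 in liver. Both pancreas arrays were high, and stomach and liver overlapped. It was 190-fold higher in pancreas than in stomach (log2 difference 7.57, SE 0.529; limma adjusted p = 0.00828) and 117-fold higher than in liver (log2 difference 6.87, SE 0.529; limma adjusted p = 0.00726). These are the folds that depend most on the low end of the scale: with 16 added they were 21.3 and 19.6. The fold over liver was 197 and 69.2 without liver replicate 1 or 2.

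The related chitinase gene chia.S, which has 3 genes between it and chit1.S in the RefSeq table, had 42.5 and 39.9 in pancreas, 29.6 and 20.0 in stomach, and 8.23 and 44.1 in liver on the brighter of its probe sets. The liver arrays spanned all the other values, and no comparison passed for either probe set (lowest limma adjusted p = 0.329).

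Deoxyribonuclease I had a pancreas excess over both organs. The gene dnase1 had 7200 and 3590 in pancreas, 45.0 and 62.9 in stomach, and 11.1 and 14.9 in liver. As for cel.2.S, the 3 organs did not overlap and stomach lay between the others. It was 95.6-fold higher in pancreas than in stomach (log2 difference 6.58, SE 0.411; limma adjusted p = 0.00679) and 395-fold higher than in liver (log2 difference 8.63, SE 0.411; limma adjusted p = 0.00351). With 16 added the fold over liver was 176. The symbol dnase1 carries no chromosome letter, and its gene identifier was not found in the RefSeq table that held the other 6 genes. The relative dnase1l3.S, a nuclease that clears DNA in mammals, had 63.4 and 39.6 in pancreas, 56.3 and 53.1 in stomach, and 59.3 and 29.3 in liver and did not pass (limma adjusted p = 0.879 against stomach and 0.755 against liver).

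Several pancreas calls ended when a single array was left out. Without pancreas replicate 1 or without stomach replicate 1, 0 of 15491 probe sets were called between pancreas and stomach in limma (2819 and 2815 at an unadjusted p under 0.05), so none of the 5 genes was; their adjusted p then lay between 0.0602 and 0.0727. Without stomach replicate 2, 4 of the 5 were called, and amy2b.S was not (limma adjusted p = 0.0663). Between pancreas and liver, 3 of the 5 were called without liver replicate 1 and 4 without liver replicate 2; amy2b.S ended in both (limma adjusted p = 0.0683 and 0.0576) and cel.2.L without replicate 1 (limma adjusted p = 0.0506). The direction was the same in every one of these fits, and the smallest fold was 50.1. Within replicate 1 alone the fold of pancreas over stomach ran from 104 for cel.2.S to 342 for cel.2.L, and within replicate 2 alone from 51.8 for cel.2.S to 146 for chit1.S. Over liver it ran from 79.9 for chit1.S to 647 for dnase1 within replicate 1, and from 77.9 for cel.2.L to 241 for dnase1 within replicate 2.

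**Figure D3:**
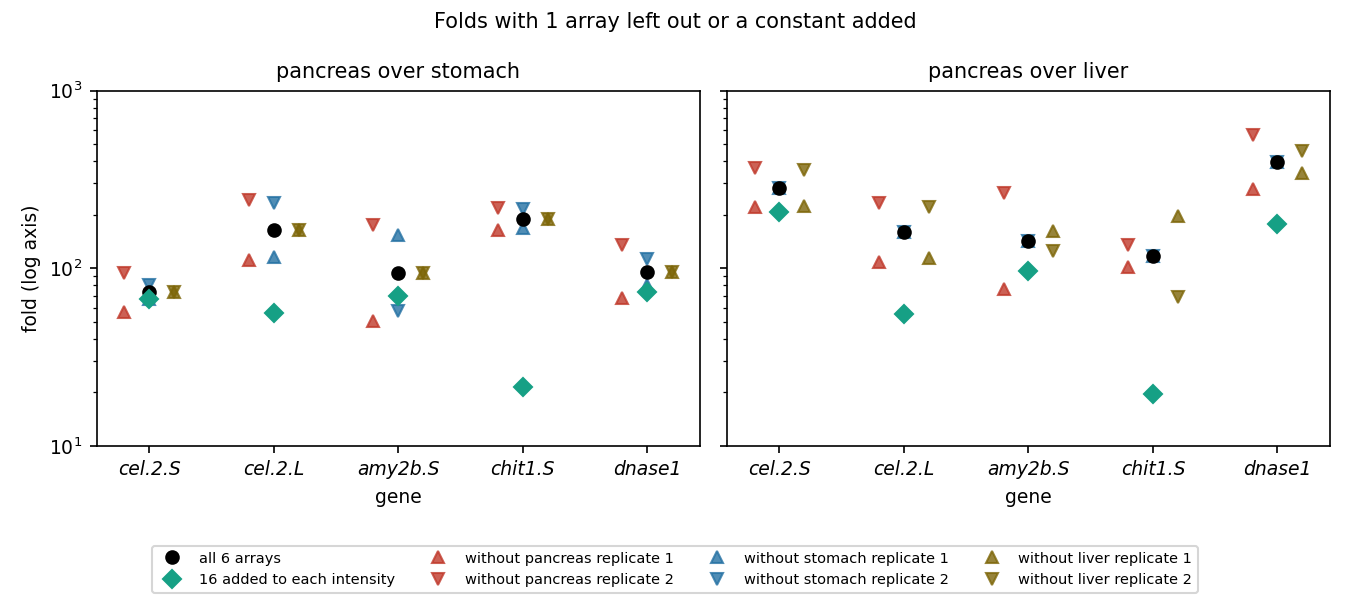
Fold of pancreas over stomach and of pancreas over liver (log axes) for the 5 called genes, from all 6 arrays (black), with each array left out in turn (triangles, coloured by organ) and with 16 added to each intensity (diamonds). All folds lie above 10; adding 16 lowers chit1.S to 21.3 and 19.6, and leaving out a pancreas array moves amy2b.S most.

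The pancreas arrays differed from each other in the amount of enzyme transcript. All 5 called genes were higher in replicate 1: amy2b.S by 3.50-fold, cel.2.L by 2.16-fold, dnase1 by 2.01-fold, cel.2.S by 1.66-fold and chit1.S by 1.33-fold. Among 7777 probe sets with a pancreas mean of 100 or more, 53.2% were higher in replicate 1, the median ratio was 1.02 and the 5th to 95th percentiles ran from 0.669 to 1.59. The ratios of amy2b.S, cel.2.L, dnase1 and cel.2.S thus lay above the 95th percentile, and chit1.S lay within the range. These ratios compare single arrays and have no test.

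The pancreatic protease genes were also mostly higher in replicate 1. Of 11 protease genes 9 were, from 3.81-fold for the carboxypeptidase gene cpa1.S down to 0.673-fold for the elastase gene cela1.2.L. Of 6 endocrine genes 5 were higher in replicate 1, from 2.13-fold for sst.1.L and 1.69-fold for scg3.L to 1.14-fold and 1.08-fold for the insulin genes ins.L and ins.S, and pcsk2.L had a ratio of 0.969. All 12 hepatocyte genes were higher in pancreas replicate 1, by 1.36-fold to 17.4-fold, and all 4 gastric epithelium genes were lower in it, with ratios of 0.0531 to 0.154. The part of these other tissues in the enzyme ratios was not tested.

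**Figure D4:**
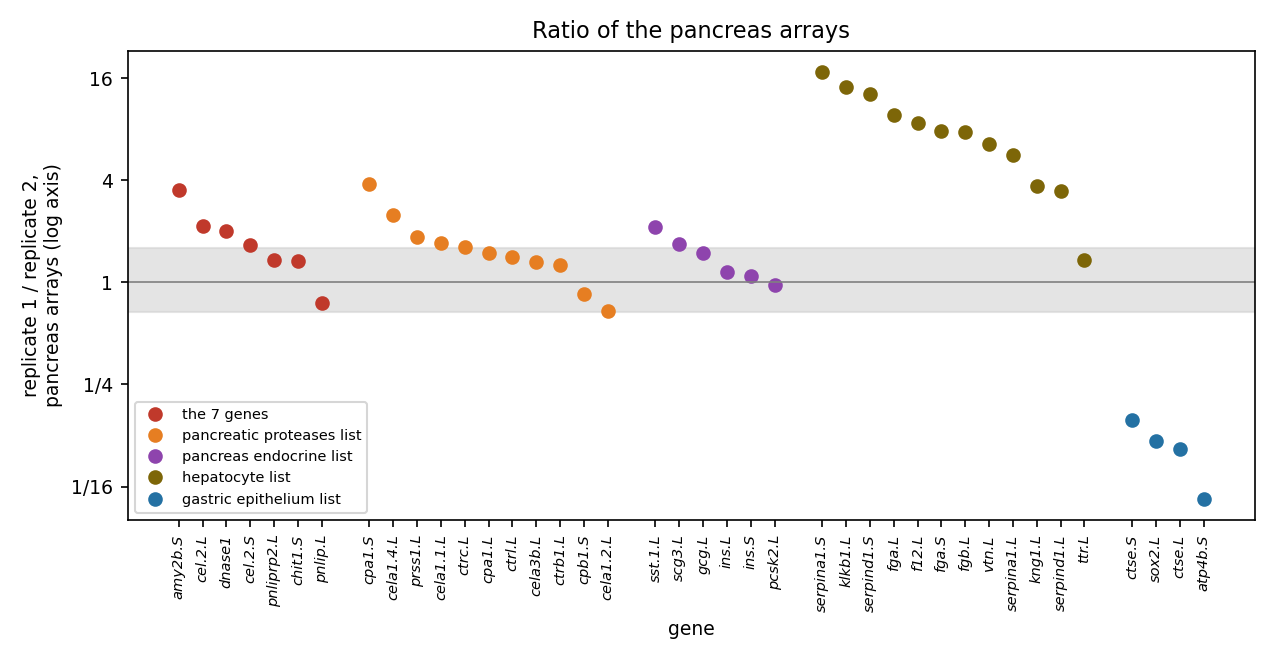
Ratio of pancreas replicate 1 to pancreas replicate 2 (log axis) for the 7 genes and for genes of the pancreatic protease, endocrine, hepatocyte and gastric epithelium lists. The grey band spans the 5th to 95th percentile of 7777 probe sets with a pancreas mean of 100 or more. Most hepatocyte and gastric genes, some protease and endocrine genes, pnlip.L and pnliprp2.L had lower means. Spread is larger there, so the band is no reference for them. The 4 enzyme genes amy2b.S, cel.2.L, dnase1 and cel.2.S lie above the band, hepatocyte genes lie at or above 1.36 and gastric genes lie at or under 0.154.

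Between stomach and liver, 2 of the 7 genes were called, both higher in stomach, where 4.64% of all probe sets were called in that direction. The stomach level of cel.2.S exceeded liver by 3.86-fold (log2 difference 1.95, SE 0.367; limma adjusted p = 0.0376) and that of dnase1 by 4.13-fold (log2 difference 2.05, SE 0.411; limma adjusted p = 0.0444). With 16 added to each intensity the folds were 3.09 for cel.2.S and 2.40 for dnase1, whose liver values were low at 11.1 and 14.9. In that setting cel.2.S passed and dnase1 did not (limma adjusted p = 0.0129 and 0.0543). With the replicate number as a block neither passed (limma adjusted p = 0.0671 and 0.0774). Neither passed when either stomach or liver array was left out, with limma adjusted p from 0.0649 to 0.171, and cel.2.S also missed the threshold without either pancreas array (limma adjusted p = 0.0509). Both genes were higher in stomach within each replicate, cel.2.S by 4.43-fold and 3.35-fold and dnase1 by 4.04-fold and 4.22-fold in replicates 1 and 2. Both stomach arrays exceeded both liver arrays for these 2 genes, which held for 25.6% of all probe sets. Both also had a plain ANOVA p under 0.05 and a ratio above 3, as did 3.52% of all probe sets. That ANOVA gives 1 p over all organs together, pancreas included, so it does not test stomach against liver.

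The other 5 genes did not pass between stomach and liver, and their intervals differ in width. The ratio of stomach to liver was 0.969 for cel.2.L (95% interval 0.347 to 2.70), 1.52 for amy2b.S (0.405 to 5.67) and 0.614 for chit1.S (0.241 to 1.56). It was 0.904 for pnlip.L (0.606 to 1.35) and 0.963 for pnliprp2.L (0.613 to 1.51). The interval of amy2b.S includes the 4-fold range seen for cel.2.S and dnase1 on the deposited scale, so a difference of that size was not excluded for it. The intervals of cel.2.L and chit1.S cannot decide this, since their stomach and liver values lay at the low end of the scale.

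Some protease transcripts were also higher in stomach. Of the 11 protease genes 4 were called higher in stomach than in liver, against 4.64% of all probe sets, and none was called lower: the chymotrypsin genes ctrb1.L, by 13.1-fold, ctrl.L, by 8.87-fold, and ctrc.L, by 3.31-fold, and the carboxypeptidase gene cpa1.L, by 7.74-fold. With single arrays left out 2 to 4 genes were called. The other 7 did not pass on their brightest probe set. They ran from prss1.L at 7.08-fold (limma adjusted p = 0.0647) and cela1.1.L at 2.63-fold down to cpa1.S at 1.11-fold and cela3b.L at 0.936-fold. At an unadjusted p under 0.05 in limma there were 7 of the 11. A second probe set of cpb1.S was called higher in stomach (limma adjusted p = 0.0119), at low values of 8.83 and 12.26 in stomach and 2.11 and 1.39 in liver. The brightest and the remaining probe set of cpb1.S were not called (limma adjusted p = 0.204 and 0.507). The isomerase gene pdia2.L, whose product folds proteins in acinar cells, was 27.3-fold higher (limma adjusted p = 0.00945), or 12.6-fold with 16 added. Of 6 endocrine genes, 3 were also higher in stomach: scg3.L, a granule protein, by 34.4-fold, the somatostatin gene sst.1.L by 9.70-fold and the convertase gene pcsk2.L by 4.13-fold (limma adjusted p = 0.00588, 0.0445 and 0.0240). The fold of scg3.L rests on low liver values, 1.84 and 1.77 against 82.9 and 46.5 in stomach. At 12.4-fold gcg.L did not pass (limma adjusted p = 0.0541), also with low liver values of 6.04 and 2.04. With single arrays left out 1 or 2 endocrine genes were called. The insulin genes of that list did not pass, with ins.S at 31.7 and 80.2 in stomach and 48.6 and 39.6 in liver (limma adjusted p = 0.846), and ins.L at 45.7 and 73.0 in stomach and 57.9 and 66.2 in liver (limma adjusted p = 0.877). As a share of its pancreas mean, cel.2.S had 1.33% in stomach and 0.352% in liver, and dnase1 had 1.00% and 0.241%. The stomach share of amy2b.S was close to that of dnase1, at 0.995%, with 0.589% in liver. The gene cel.2.L had 0.601% and 0.616%, and chit1.S had 0.524% and 0.966%. The protease ctrb1.L, which had the largest fold of stomach over liver among the proteases, had 14.7% and 1.24%. The part of pancreatic tissue in the stomach pieces was not tested.

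**Figure D5:**
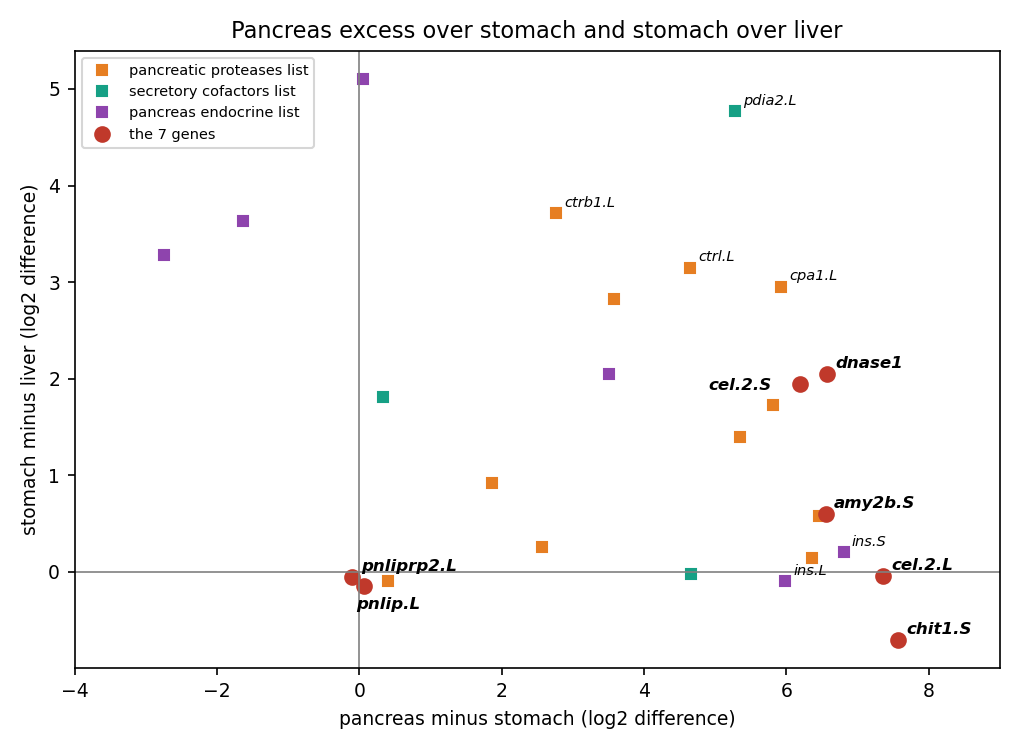
Log2 difference of stomach minus liver against log2 difference of pancreas minus stomach for the 7 genes (red circles) and for genes of the protease, secretory cofactor and endocrine lists (squares). The genes cel.2.S and dnase1 lie near 2 on the vertical axis among the proteases. The genes amy2b.S, next to the protease cpb1.S (its brightest probe set), cel.2.L and chit1.S lie under 1.

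Some other genes of lipid, carbohydrate and nucleic acid breakdown were called between pancreas and its neighbours. Over all probe sets 3.59% were called higher and 4.39% lower in pancreas than in stomach. Against liver 2.7% were called higher and 3.55% lower. The lists are short, so their counts are a description. Of 3 other lipase genes on the array, lipe.L, the hormone-sensitive lipase of fat stores, was 6.99-fold higher in pancreas than in stomach (limma adjusted p = 0.0106). It had 32.7 and 45.9 in pancreas, 5.58 and 5.50 in stomach, and 45.2 and 42.3 in liver, so stomach was the organ that stood apart. Between pancreas and liver cel.1.L was the 1 called gene, and liph.L, a phospholipase gene, passed in neither comparison. Between stomach and liver lipe.L was lower, where 4.94% of all probe sets were.

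Of 6 other glycosidase and chitinase genes, 0 were called between pancreas and stomach in limma (1 at an unadjusted p under 0.05), and ctbs.S, a lysosomal chitobiase, was lower in pancreas than in liver. It had 67.1 and 51.2 in pancreas, 64.9 and 69.5 in stomach, and 363 and 318 in liver, and its liver level exceeded pancreas by 5.80-fold (limma adjusted p = 0.00949). So chit1.S and ctbs.S were highest in different organs. The fucosidase gene fuca1.L was higher in stomach, by 14.2-fold over liver (limma adjusted p = 0.0102). It had 80.7 and 48.1 in stomach and low values of 3.81 and 5.06 in liver. The other copy, fuca1.S, had a ratio of stomach to liver of 0.900 and did not pass (limma adjusted p = 0.797). Of 5 other nuclease genes, 0 were called between pancreas and stomach in limma (1 at an unadjusted p under 0.05). The gene pld3.L, a lysosomal exonuclease, was lower in pancreas, with liver above it by 2.35-fold (limma adjusted p = 0.0295), a call that ended when any 1 of the 6 arrays was left out.

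Most proteases shared the pancreas excess. Of the 11 protease genes 9 were higher in pancreas than in stomach (6 with the replicate number as a block, 0 to 8 with single arrays left out) and 9 higher than in liver (5 to 8 with single arrays left out), with median log2 differences of 4.64 and 6.51, against 0.11 and 0.05 over all probe sets. Of 3 secretory cofactor genes 2 were higher in both comparisons: pdia2.L, by 38.7-fold and 1054-fold (464-fold over liver with 16 added; its liver values were 9.59 and 17.0), and gatm.L, an enzyme of creatine synthesis, by 25.4-fold and 25.0-fold. The second probe set of gatm.L was not called in either.

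Of 9 genes for transcription factors of acinar and pancreas development, 4 were higher in pancreas than in stomach. They were nr5a2.L by 27.8-fold, nr5a2.S by 30.4-fold, xbp1.L by 6.60-fold and gata6.S by 2.37-fold. The factor NR5A2 activates enzyme genes, CEL among them, in mammalian acinar cells. Against liver 3 were higher, gata6.S, mnx1.S and nr5a2.L (by 3.04-fold to 4.84-fold), and hnf4a.S was lower; with single arrays left out 0 to 2 were higher than in liver and 0 to 3 higher than in stomach. The second probe sets of nr5a2.L and nr5a2.S were not called in these comparisons. Between stomach and liver nr5a2.L, nr5a2.S, xbp1.L and hnf4a.S were lower in stomach, with 0 to 2 genes called when single arrays were left out. Of 3 genes of intestinal lipid uptake, 0 were called higher in pancreas in either comparison (limma; 2 at an unadjusted p under 0.05 against stomach and 3 against liver, in either direction), and fabp2.L, a fatty acid carrier of enterocytes, and apob.S, a lipoprotein of enterocytes and liver, were lower in pancreas than in stomach by 43.3-fold and 12.6-fold. Against liver apob.S was lower in pancreas by 32.3-fold (limma adjusted p = 0.00351). The gene fabp2.L had 44.1 and 99.2 in pancreas and 13.9 and 16.2 in liver and did not pass (limma adjusted p = 0.0729).

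Likeness of pattern was measured as the distance between log2 profiles over the 6 arrays, each centred on its own mean. Within the group, cel.2.S and dnase1 were nearest to each other, at 0.592, and each was the other's nearest gene among all genes with 1 symbol. The nearest gene to amy2b.S was the carboxypeptidase gene cpa1.S (1.49), and the nearest to cel.2.L and to chit1.S was the insulin gene ins.S (1.28 and 1.49). The profiles of pnlip.L and pnliprp2.L were flat and had 3775 and 3389 other genes within a distance of 1, so no neighbour of theirs stands out.

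To the mean profile of all 7 genes, the 8 nearest genes were gatm.L (distance 0.842), hes5.3.L, a gene of the Notch effector family (0.905), ins.L (1.24), nrsn1.L (1.55), the elastase gene cela1.1.L (1.63), serpini1.L, a neuronal protease inhibitor in mammals (1.87), pcsk2.L, a prohormone convertase (1.88), and cldn6.1.L, a claudin of tight junctions (1.90). Their Pearson r with that profile ran from 0.949 to 0.995 over 6 arrays, which share organs and isolations and form organ clusters, so r is a description. The mean profile is lowered by the 2 flat genes, and the neighbours include endocrine as well as exocrine genes.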

How the data were processed

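The 6 arrays were total RNA of 3 organs, with 2 arrays each. The authors deposited 1 table of linear intensity values, 1 column per array, scaled to a median of 100. The submitters' processing notes name RMA, and the series' design text names Expressionist software. The sources used here do not give the background correction, and the table holds no detection calls. Precision is limited by having 2 arrays an organ.

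Arrays were grouped by their titles. Control rows (120 of 15611) were left out. Gene names came from the platform annotation, in which 9304 probe sets had 1 symbol, and 6 of the 7 genes were found by gene identifier in the RefSeq table of the v10.1 assembly. No sequence and no genome coordinates were used, so promoter motifs were not searched.

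The log2 intensities were fitted with limma 3.58.1 in R 4.3.3 (lmFit on organ means, all 6 arrays in 1 fit, then eBayes, 3 residual and 2.14 prior degrees of freedom), without a filter on low values, and tested on simulated data. Means and folds are geometric unless a mean intensity is named. Titles give all samples of 1 replicate number the same leading code. Deviations from organ means correlated within a number at 0.152 to 0.197 across probe sets, and at 0.400 to 0.431 for those with a mean over 100. So the numbers were taken to pair the samples. The main fit left this pairing out, and the replicate block, an alternative, fitted it. Where a gene of a list had several probe sets, the brightest on average stood for it. Named genes are the 7 members, up to 4 called genes per list (if none, the 2 brightest), and the 8 nearest genes; dnase1l3.S, chia.S, the insulin genes and genes called between stomach and liver were added after their values were seen. The members and all lists were chosen with earlier results of these data known. Alternatives were each array left out, a replicate block, an added 16, quantile normalization, a filter, an intensity trend, 4-array fits, 1 probe set per gene, and the plain ANOVA with a ratio above 3 of the design text.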

Additional observations from a re-analysis of the deposited data

How the results depend on the processing

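Between pancreas and stomach and between pancreas and liver, 5 genes were called with the replicate block, with 16 added, with quantile normalization, with the intensity trend, in the 4-array fits and with 1 probe set per gene. The plain ANOVA over all organs, unadjusted and with a ratio above 3, took the same 5. Leaving out single arrays gave 0 to 5 called genes between pancreas and stomach and 3 to 5 between pancreas and liver; the fits then rest on a lone array assumed to vary like the other organs. Between stomach and liver 2 genes were called, but 1 with 16 added (dnase1 had an adjusted p of 0.0543), 0 with the replicate block, 1 in the 4-array fit (cel.2.S at 0.0509) and 0 to 1 with single arrays left out. The replicate block changed no other call of the 7 genes. The filter left out probe sets with a mean under 75.2, among them pnlip.L and pnliprp2.L, and 4 of the 5 called genes had stomach and liver means under that value and passed only through pancreas, so the filtered count bears on none of these 6 genes. Log2 differences changed sign only for genes that passed in no fit of that comparison. With single arrays left out, pancreas minus stomach ran from -0.13 to 0.27 for pnlip.L and from -0.32 to 0.12 for pnliprp2.L. Pancreas minus liver ran from -0.28 to 0.12 for pnlip.L and from -0.37 to 0.0685 for pnliprp2.L. Stomach minus liver ran from -0.55 to 0.46 for cel.2.L, from -0.24 to 0.13 for pnliprp2.L, from -0.11 to 1.31 for amy2b.S and from -1.46 to 0.0505 for chit1.S. The log2 difference of the cel.2.S to cel.2.L ratio, pancreas minus stomach, was -1.16 on the deposited scale and 0.27 with 16 added, a setting applied to it after seeing the data. The causes were not tested. Spread limits the dim probe sets: for mean intensities up to 16 the residual SD (log2) had a median of 0.836, and for means over 1000 of 0.176.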

Other observations

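On the deposited scale 9 probe sets were at least as far above both stomach and liver as cel.2.S, the smallest of the 5 called genes by this measure (73.3-fold over the nearer organ). Of these, 5 were cel.2.L, chit1.S, dnase1, amy2b.S and cel.2.S themselves. The others were 2 probe sets of the carboxypeptidase gene cpb1.S, at 182-fold and 88.2-fold, the insulin gene ins.S, at 112-fold, and the carboxypeptidase gene cpa1.S, at 82.1-fold. No probe set without a gene symbol was in this range. The limit was set from the genes' own values, so the count is a description. It also rests on low values: with 16 added to each intensity, chosen after seeing the data, the smallest of the 5 genes was chit1.S at 19.6-fold, and 17 probe sets reached that limit. Of these 17, 1 had no single gene symbol.

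On its brightest and on a second probe set, but not on the remaining one, cpb1.S went against the direction between isolations seen for amylase. On its brightest probe set cpb1.S had 2681 in replicate 1 and 3152 in replicate 2 of pancreas, and on a second one 1791 and 1993, whereas the remaining one had 695 and 293. Probe sets of 1 gene thus differed in direction between the same 2 arrays.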
